A study of Homo sapiens with 9 samples.

Results

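The mature miRNAs of the miR-15/16 family and of their paired hairpins were followed through an established human colorectal carcinoma line, HCT116, and 2 drug-selected sublines of it. The 10 members are hsa-miR-15a-5p, hsa-miR-15b-5p, hsa-miR-15b-3p, hsa-miR-16-5p, hsa-miR-16-2-3p, hsa-miR-195-5p, hsa-miR-497-5p, hsa-miR-424-5p, hsa-miR-424-3p and hsa-miR-503-5p, written below without the species prefix. They were taken by exact name from the 1198 mature miRNAs in the count table, where all 10 were listed, and 9 of them had enough reads to be tested. HCT-Oxa-c, the oxaliplatin subline, was derived from HCT116 under continuous, increasing oxaliplatin, a platinum drug that crosslinks DNA, and HCT-FU-c, the 5-fluorouracil subline, in the same way under 5-fluorouracil, a thymidylate synthase inhibitor. HCT116 is the line without drug selection, and each selected subline is a single one. Each line has 3 replicates, labelled as cell culture replicates, giving 9 small RNA libraries. A difference between lines is therefore one between these particular sublines, and selection by a drug and the history of the subline cannot be told apart.

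A miRNA recognises its target mRNAs mainly through the seed, bases 2 to 8 counted from its 5′ end, so that miRNAs with the same seed can bind the same sites. The miR-15/16 family is known for restraining the cell cycle and cell survival, with cyclins, cyclin-dependent kinases and BCL2 among its targets, and loss of the miR-15a/16-1 locus is a well known lesion of chronic lymphocytic leukaemia. Each hairpin gives a 5p and a 3p strand, of which usually one is kept in the silencing complex and the other is degraded.

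The mature sequences, from RefSeq on GRCh38.p14, show which members can act as one family, since they are the sole guide to shared targets in these data. Bases 2 to 8 are in capitals. For 6 of the 10 members these bases are AGCAGCA:
miR-15a-5p: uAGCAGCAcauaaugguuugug
miR-15b-5p: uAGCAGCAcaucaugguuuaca
miR-16-5p: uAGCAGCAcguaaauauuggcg
miR-195-5p: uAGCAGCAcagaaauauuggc
miR-497-5p: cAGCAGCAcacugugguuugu
miR-424-5p: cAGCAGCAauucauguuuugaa
The other 4 members carry a different seed. They are miR-503-5p, which matches AGCAGCA at 6 of 7 bases, and the 3p strands:
miR-503-5p: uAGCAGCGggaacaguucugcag
miR-15b-3p: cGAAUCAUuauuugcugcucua
miR-16-2-3p: cCAAUAUUacugugcugcuuua
miR-424-3p: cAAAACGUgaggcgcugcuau

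Of the 1059 listed miRNAs with a RefSeq sequence, 7 (0.661%) had the seed AGCAGCA. These were the 6 members and miR-6838-5p, which had 1 read over all libraries. Beyond the seed the members differ. miR-16-5p and miR-195-5p are the same at 19 of 21 aligned positions, miR-15a-5p and miR-15b-5p at 18 of 22, and miR-16-5p and miR-497-5p at 11 of 21. How reads that fit more than 1 miRNA were shared out is not given in the sources used here, which bears most on miR-195-5p beside its far more abundant near copy miR-16-5p.

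The members come from 4 loci, each with a pair of hairpins. MIR15A and MIR16-1 lie on the minus strand of chromosome 13 at 50048973 to 50049201 (GRCh38), 57 bases apart, in introns of the noncoding gene DLEU2. MIR15B and MIR16-2 lie on the plus strand of chromosome 3 at 160404588 to 160404825, 59 bases apart, in introns of SMC4, which encodes a condensin subunit. MIR195 and MIR497, on the minus strand too, occupy chromosome 17 from 7017615 to 7018022 within the noncoding gene MIR497HG, in exon 1 of one of its transcripts and an intron of another. MIR424 and MIR503 lie on the minus strand of chromosome X at 134546328 to 134546711, 215 bases apart, and MIR503 is in intron 1 of MIR503HG. Mature miR-16-5p is the same molecule from MIR16-1 and from MIR16-2, so its reads cannot be assigned to a locus. Of the loci that share it, chromosome 13 is reported alone by miR-15a-5p and chromosome 3 by miR-15b-5p, miR-15b-3p and miR-16-2-3p. The members from chromosomes 17 and X each come from a single hairpin.

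The libraries held 856383 to 2207538 counted reads, and replicate 3 was the shallowest of each line. Levels are given as CPM, each count divided by its library size and multiplied by 1000000, with library sizes scaled by the trimmed mean of M values (TMM), and 3 reads, taken as the limit of detection, corresponded to 1.34 to 4.01 CPM. That limit covers counting error only. Lines were compared with edgeR's quasi-likelihood test, and a miRNA was called when its p, adjusted by Benjamini-Hochberg over the 367 miRNAs tested, was below 0.05. The comparisons of HCT-Oxa-c and of HCT-FU-c with HCT116 share the same 3 HCT116 libraries, and the comparison of the sublines uses both again. The replicate 3 libraries of the 3 lines deviated together. Among replicates 1 and 2, deviations from the line means correlated at 0.395 to 0.644 within a number and at 0.408 to 0.608 across numbers. A block of the replicate number thus mainly sets replicate 3 apart. The fit with this block is given beside the fit on the line alone where it changes a call. Reads of different miRNAs are compared as reads, since ligation to adapters depends on the sequence of each miRNA.

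The replicate 3 libraries stood apart before any comparison of lines. Of 7 markers looked at, the epithelial miR-200c-3p ran from 9116 to 11361 CPM over the 9 libraries, and the gut miRNAs miR-192-5p and miR-194-5p from 34.5 to 70.2 CPM and from 48.2 to 202 CPM. The red cell miRNA miR-451a had 86, 70 and 246 reads in replicate 3 of HCT116, HCT-FU-c and HCT-Oxa-c and 0 to 2 reads in each of the 6 other libraries. The myeloid miR-223-3p had 0 to 13 reads per library. The smooth muscle miRNA miR-143-3p was highest in replicate 3 of each line, at 312 to 561 CPM, and its partner miR-145-5p lowest there, at 64.3 to 114 CPM. The part of these differences in the values below was not tested, and results that rest on replicate 3 are given with and without it.

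miR-16-5p, the most abundant member, made up most of the family in every line. It stood at 7746, 7400 and 4652 CPM in replicates 1, 2 and 3 of HCT116, at 7180, 7049 and 3823 CPM in those of HCT-FU-c and at 7010, 6151 and 4576 CPM in those of HCT-Oxa-c. The ranges of the lines overlapped, and the replicate 3 library was the lowest of each. The means were 6599 ± 1695, 6017 ± 1901 and 5912 ± 1234 CPM (SD, n = 3 each). Against HCT116 the oxaliplatin subline gave a log2 fold change of -0.16 (95% interval -0.88 to 0.56, edgeR adjusted p = 1). The 5-fluorouracil subline gave -0.13 (95% interval -0.85 to 0.59, edgeR adjusted p = 0.997). With replicates 1 and 2 only the values were -0.19 (edgeR adjusted p = 0.542) and -0.14 (edgeR adjusted p = 0.773). On the line alone, a difference anywhere within these intervals, in either direction, is compatible with the data. With the replicate block the values were -0.14 and -0.15, with standard errors of 0.14 (edgeR adjusted p = 0.606 and 0.636).

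**Figure D1:**
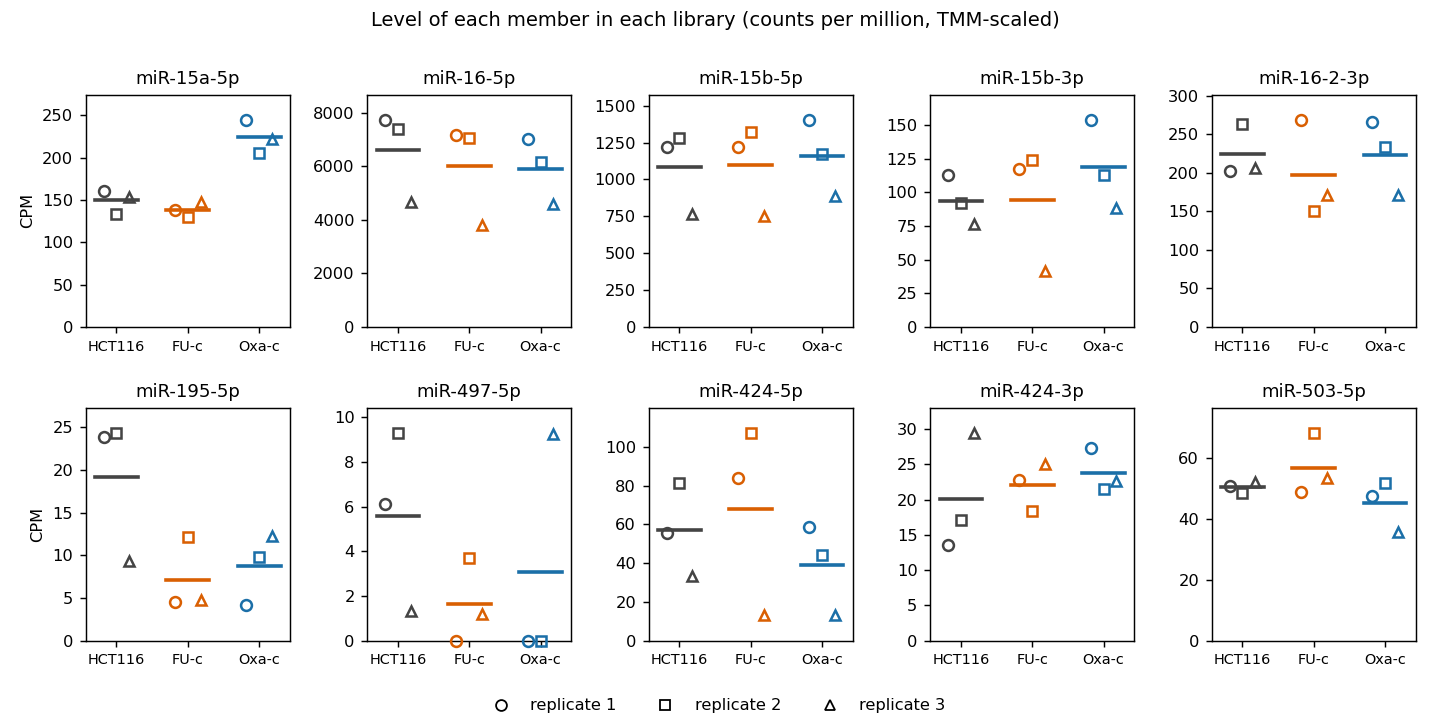
Level of each of the 10 members in each library, in CPM on TMM-scaled library sizes, with a separate vertical axis from 0 for each member. Symbols are replicates 1 to 3, horizontal bars the mean of a line, and FU-c and Oxa-c stand for HCT-FU-c and HCT-Oxa-c. The 3 HCT-Oxa-c libraries of miR-15a-5p, at 205 to 245 CPM, lie above all 6 others. Over all tested miRNAs, HCT-Oxa-c libraries do not overlap those of HCT116 for 16.1%, and those of HCT-FU-c for 22.9%. For miR-16-5p, miR-15b-5p and miR-424-5p replicate 3 is the lowest library of each line.

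miR-15a-5p, the member that comes from the chromosome 13 locus alone, was the one member whose HCT-Oxa-c libraries stood apart. Its level was 161, 134 and 154 CPM in HCT116, 138, 130 and 148 CPM in HCT-FU-c and 245, 205 and 222 CPM in HCT-Oxa-c. Every HCT-Oxa-c library exceeded every library of the other lines, while HCT116 and HCT-FU-c overlapped. Over all tested miRNAs, HCT-Oxa-c libraries did not overlap those of HCT116 for 16.1%, and those of HCT-FU-c for 22.9%. The means of miR-15a-5p were 150 ± 13.8, 139 ± 8.97 and 224 ± 20.4 CPM (SD, n = 3 each), and unlike miR-16-5p it did not drop in replicate 3. On the line alone the difference did not pass the threshold. The log2 fold change in HCT-Oxa-c was 0.58 against HCT116 (standard error 0.21, 1.5-fold, edgeR unadjusted p = 0.0209, adjusted p = 0.265) and 0.69 against HCT-FU-c (standard error 0.21, 1.62-fold, edgeR unadjusted p = 0.00887, adjusted p = 0.105). With the replicate number as a block it was called higher in both, at the same log2 fold changes of 0.58 and 0.69 with standard errors of 0.18 (edgeR adjusted p = 0.0291 and 0.00587). DESeq2 without a block called it too, with adjusted p = 0.0232 against HCT116 and 0.000776 against HCT-FU-c. With replicates 1 and 2 only, edgeR gave 0.62 against HCT116 (adjusted p = 0.0867), not called, and 0.82 against HCT-FU-c (adjusted p = 0.0183), called. Over the 18 alternative settings the log2 fold change of miR-15a-5p against HCT116 stayed between 0.54 and 0.67, with adjusted p from 0.0232 to 0.806. Against HCT-FU-c it stayed between 0.52 and 0.85, with adjusted p from 0.000776 to 0.666. In HCT-FU-c its log2 fold change against HCT116 was -0.11 (95% interval -0.58 to 0.36, edgeR adjusted p = 0.997), and 0.05 with library sizes taken as total counts.

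miR-16-1-3p, the other strand from the same pair of hairpins, had 1 to 5 reads per library in the 9 libraries and was not tested. The chromosome 13 locus was therefore read through miR-15a-5p alone.

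The chromosome 3 locus was read through 3 members, and none of them was called in any comparison with or without the block. miR-15b-5p, the main strand of MIR15B and the next most abundant of the family, was at 1218, 1278 and 763 CPM in HCT116, at 1220, 1320 and 753 CPM in HCT-FU-c and at 1406, 1173 and 888 CPM in HCT-Oxa-c. The lines overlapped, and as for miR-16-5p the third library of each was the lowest. Set against HCT116, it differed by 0.09 on the log2 scale in the oxaliplatin subline (95% interval -0.62 to 0.80, edgeR adjusted p = 1) and by 0.01 in the 5-fluorouracil subline (95% interval -0.69 to 0.72, edgeR adjusted p = 0.997). The first changed sign with a library left out, and the second with that and with other scalings. Its passenger strand miR-15b-3p averaged 93.6 ± 18.3 CPM in HCT116, 94.2 ± 45.7 CPM in HCT-FU-c and 118 ± 33.3 CPM in HCT-Oxa-c (n = 3 each, SD). miR-16-2-3p, the passenger strand of MIR16-2, averaged 224 ± 34.4, 197 ± 63.1 and 224 ± 48.2 CPM in the same order. In both, the libraries of the 3 lines overlapped.

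miR-195-5p, a tumour suppressor in several carcinomas, was scarce and had the lowest mean of the tested members. Its counts were 35, 34 and 7 reads in replicates 1, 2 and 3 of HCT116, 6, 23 and 4 reads in HCT-FU-c and 8, 22 and 12 reads in HCT-Oxa-c. As levels these were 23.8, 24.3 and 9.35 CPM in HCT116, 4.53, 12.1 and 4.76 CPM in HCT-FU-c and 4.19, 9.83 and 12.3 CPM in HCT-Oxa-c. Replicates 1 and 2 of HCT116 were the highest libraries, and replicate 3 of HCT116 lay among those of both sublines. Against HCT116 the log2 fold change came to -1.17 for the oxaliplatin subline (standard error 0.59, 95% interval -2.50 to 0.17, edgeR adjusted p = 0.536). For the 5-fluorouracil subline it came to -1.39 (standard error 0.60, 95% interval -2.74 to -0.03, edgeR adjusted p = 0.913). With the block the adjusted p was 0.118 and 0.108 (edgeR), again above the threshold. With replicates 1 and 2 only, miR-195-5p was called lower in HCT-Oxa-c, with a log2 fold change at -1.71 (edgeR adjusted p = 0.0488), and was not called in the other subline, at -1.51 (edgeR adjusted p = 0.136). The direct log2 difference between the sublines, HCT-Oxa-c against HCT-FU-c, was 0.22 (95% interval -1.16 to 1.60, edgeR adjusted p = 0.915). With 1 library left out, the oxaliplatin value ran from -1.49 (without HCT116 replicate 3) to -0.79 (without HCT-Oxa-c replicate 1). The lowest 5-fluorouracil value was -2.04, with HCT-FU-c replicate 2 left out, and the highest -1.18, with replicate 1 of that line left out.

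miR-497-5p, the neighbour of miR-195-5p, had 0, 0 and 9 reads in HCT-Oxa-c, 9, 13 and 1 reads in HCT116 and 0, 7 and 1 reads in HCT-FU-c, too few to be tested. Of the 9 libraries, 5 were under the limit of 3 reads. miR-195-3p, the other strand of MIR195, had 0 to 4 reads per library.

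miR-424-5p, the member of the family on chromosome X, differed more between replicates than between lines. It was at 55.7, 81.4 and 33.4 CPM in HCT116, 83.9, 107 and 13.1 CPM in HCT-FU-c and 58.7, 44.3 and 13.3 CPM in HCT-Oxa-c. Replicate 3 was the lowest library of each line, at 0.487, 0.137 and 0.259 of the mean of replicates 1 and 2 in HCT116, HCT-FU-c and HCT-Oxa-c. The log2 fold change against HCT116 was -0.54 for the oxaliplatin subline (95% interval -2.18 to 1.09, edgeR adjusted p = 0.978) and 0.27 for the 5-fluorouracil subline (95% interval -1.36 to 1.89, edgeR adjusted p = 0.997). With replicates 1 and 2 only these were -0.40 (edgeR adjusted p = 0.428) and 0.43 (edgeR adjusted p = 0.482). With 1 library left out, the first ran from -0.90 (without HCT-Oxa-c replicate 1) to -0.09 (without HCT-Oxa-c replicate 3), and was -0.12 without HCT116 replicate 2. The second was lowest at -0.22 with HCT-FU-c replicate 2 left out and highest at 0.70 with replicate 3 of that line left out, so its direction depended on a single library. Between the sublines, HCT-Oxa-c against HCT-FU-c, the value was -0.81 (standard error 0.72, edgeR adjusted p = 0.677). That last difference was -0.74 with the block (standard error 0.30, edgeR adjusted p = 0.0729) and -0.83 with replicates 1 and 2 only, where it was called (edgeR adjusted p = 0.0479). Leaving out HCT-FU-c replicate 3 gave -1.15, the lowest value with 1 library left out, and leaving out replicate 2 of that line gave -0.34, the highest.

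miR-424-3p, from the other arm of the same hairpin, ran from 13.6 to 29.4 CPM, and its highest library was HCT116 replicate 3. Its means were 20 ± 8.29 CPM in HCT116, 22 ± 3.36 CPM in HCT-FU-c and 23.8 ± 3.08 CPM in HCT-Oxa-c (n = 3 each, SD). miR-503-5p, which inhibits CDC25A and cyclin D1 in other settings, was the steadiest member in HCT116, at 50.5 ± 1.8 CPM, against 57.0 ± 10.0 CPM in HCT-FU-c and 45.1 ± 8.27 CPM in HCT-Oxa-c (n = 3 each, SD). Neither was called in any comparison with or without the block, and the libraries of the lines overlapped for both.

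Counted over the members, 0 of the 9 tested were called in HCT-Oxa-c against HCT116 with the line alone, where 2.45% of all tested miRNAs were called. In HCT-FU-c against HCT116 the count was 0 of 9 beside 0% of all, and in HCT-Oxa-c against HCT-FU-c 0 of 9 beside 4.36%. At an unadjusted p below 0.05 edgeR gave 1 member in each comparison, beside 10.4%, 4.09% and 16.9% of all tested miRNAs in the same order. DESeq2 called 1, 0 and 1 members, beside 6.27%, 1.09% and 11.7% of all. With replicates 1 and 2 only, edgeR called 1, 0 and 2 members, beside 11.3%, 3.42% and 17.6% of the 380 miRNAs then tested. With the replicate block 1 member, miR-15a-5p, was called in HCT-Oxa-c against HCT116 (14.7% of all tested miRNAs), 0 in HCT-FU-c against HCT116 (5.45%) and 1, again miR-15a-5p, in HCT-Oxa-c against HCT-FU-c (26.4%). Libraries of the lines did not overlap for 1 member in HCT-Oxa-c against HCT116 (16.1% of all), 0 in HCT-FU-c against HCT116 (8.72%) and 1 in HCT-Oxa-c against HCT-FU-c (22.9%). A share of 1 in 9 lies below the background of the block calls and of the non-overlapping libraries in both comparisons of HCT-Oxa-c.

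The medians of the 9 tested members lay near 0. In HCT-Oxa-c against HCT116 the median log2 fold change was 0 (from -1.17 to 0.58) beside -0.012 over all 367, 0.014 in HCT-FU-c against HCT116 (from -1.39 to 0.27) beside 0.024, and 0.118 in HCT-Oxa-c against HCT-FU-c (from -0.81 to 0.69) beside -0.072. Directions over the list depended on the scaling. In HCT-FU-c 5 members had a positive log2 fold change with TMM, 3 with relative log expression (RLE) size factors and 7 with total counts, which moved the median of all miRNAs to 0.192.

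**Figure D2:**
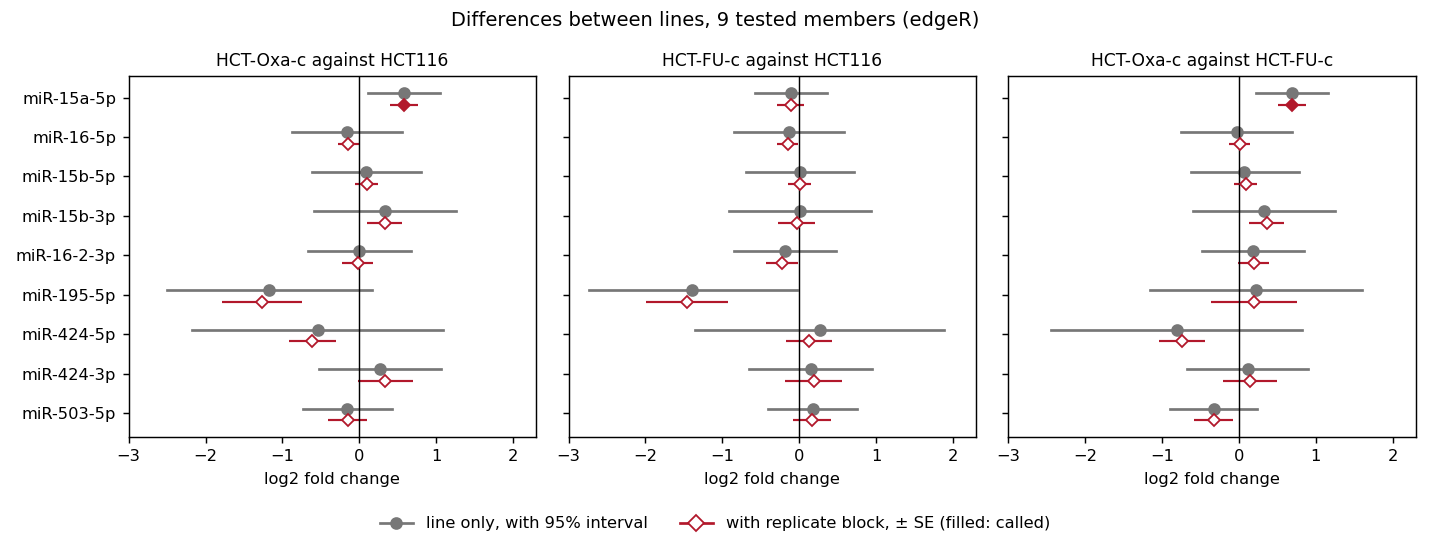
Log2 fold changes of the 9 tested members in the 3 comparisons of lines. Grey circles with 95% intervals are from the fit on the line alone and red diamonds with standard errors from the fit with the replicate block, filled where the adjusted p was below 0.05. The sole filled diamonds are those of miR-15a-5p at 0.58 and 0.69 in the comparisons of HCT-Oxa-c with HCT116 and with HCT-FU-c, and miR-195-5p lies farthest below 0 in both comparisons with HCT116.

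The summed level of the miRNAs with the seed AGCAGCA describes how much of the shared seed each line held. It was 9210, 8928 and 5612 CPM in HCT116, 8627, 8622 and 4742 CPM in HCT-FU-c and 8724, 7583 and 5721 CPM in HCT-Oxa-c. The lines overlapped, and replicate 3 was the lowest library of each. The log2 ratio of the mean level to that of HCT116 was -0.11 for each subline, less than the spread between libraries, and -0.14 and -0.12 for the oxaliplatin and the 5-fluorouracil subline with replicates 1 and 2 only. Of the family's reads, miR-16-5p made up 80.0 to 84.1% in the 9 libraries, miR-15b-5p 13.2 to 16.1% and miR-15a-5p 1.5 to 3.87%. Without miR-16-5p this log2 ratio was 0.12 for the oxaliplatin subline and 0 for the 5-fluorouracil subline. The higher level of miR-15a-5p in the HCT-Oxa-c libraries, not called on the line alone, thus concerned a member with a small share of the family's reads.

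Ratios of reads within a library need no scaling between libraries, and 7 ratios were compared between each pair of lines, 21 tests in all. With 3 libraries against 3, the exact two-sided permutation test cannot give less than p = 0.10. The ratio of miR-16-5p to miR-15a-5p was 48.2, 55.1 and 30.3 in replicates 1, 2 and 3 of HCT116. It was 51.9, 54.3 and 25.9 in the 5-fluorouracil subline, whereas the oxaliplatin subline stood at 28.6, 30.0 and 20.7. HCT-Oxa-c lay below HCT116 in all 3 libraries, by 0.55 to 0.88 on the log2 scale within a replicate number and by 0.73 on average (exact permutation p = 0.1, adjusted p = 0.63 over the 21 tests). It also lay below HCT-FU-c within each of the 3 numbers, while the full ranges of these lines overlapped through HCT-FU-c replicate 3 (exact permutation p = 0.3, adjusted p = 0.63).

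The ratio of miR-16-5p to miR-15b-5p was the steadiest of the 7, from 4.99 to 6.36 over the 9 libraries. HCT116 gave 6.36, 5.79 and 6.10, HCT-FU-c 5.88, 5.34 and 5.08 and HCT-Oxa-c 4.99, 5.24 and 5.15. HCT-Oxa-c did not overlap HCT116 and differed by -0.25 on the log2 scale (exact permutation p = 0.1, adjusted p = 0.63). The libraries of HCT-FU-c overlapped those of both other lines. Within each of the 3 replicate numbers HCT-FU-c lay below HCT116, by 0.11 to 0.26 on the log2 scale (mean difference -0.16, exact permutation p = 0.2 without pairing, adjusted p = 0.63).

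Strand use was described by the ratio of the 5p to the 3p reads of a hairpin. For MIR15B, HCT116 gave 10.8, 13.9 and 10.0, HCT-FU-c 10.4, 10.6 and 18.1 and HCT-Oxa-c 9.13, 10.4 and 10.1, so the 5p strand prevailed throughout. HCT-Oxa-c lay below HCT-FU-c by 0.36 on the log2 scale on average (exact permutation p = 0.1, adjusted p = 0.63). The ranges all but met, as HCT-Oxa-c replicate 2 and HCT-FU-c replicate 1 both stood at 10.4. Without HCT-FU-c replicate 3 the difference was 0.10. For MIR16-2 the ratio of miR-16-5p to miR-16-2-3p ran from 22.3 to 46.8, with the reads of MIR16-1 included above the line.

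For MIR424 the ratio was 4.10, 4.75 and 1.14 with HCT116, 3.70, 5.83 and 0.524 with HCT-FU-c and 2.15, 2.06 and 0.591 with HCT-Oxa-c. The 5p strand had more reads in replicates 1 and 2 of every line, and the 3p strand had more in replicate 3 of both sublines. HCT-Oxa-c lay below HCT116 within each number, by 0.93 to 1.2 on the log2 scale, while the full ranges overlapped (mean difference -1.03, exact permutation p = 0.3, adjusted p = 0.63). None of the 21 tests could reach an adjusted p below 0.05 at this number of libraries.

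**Figure D3:**
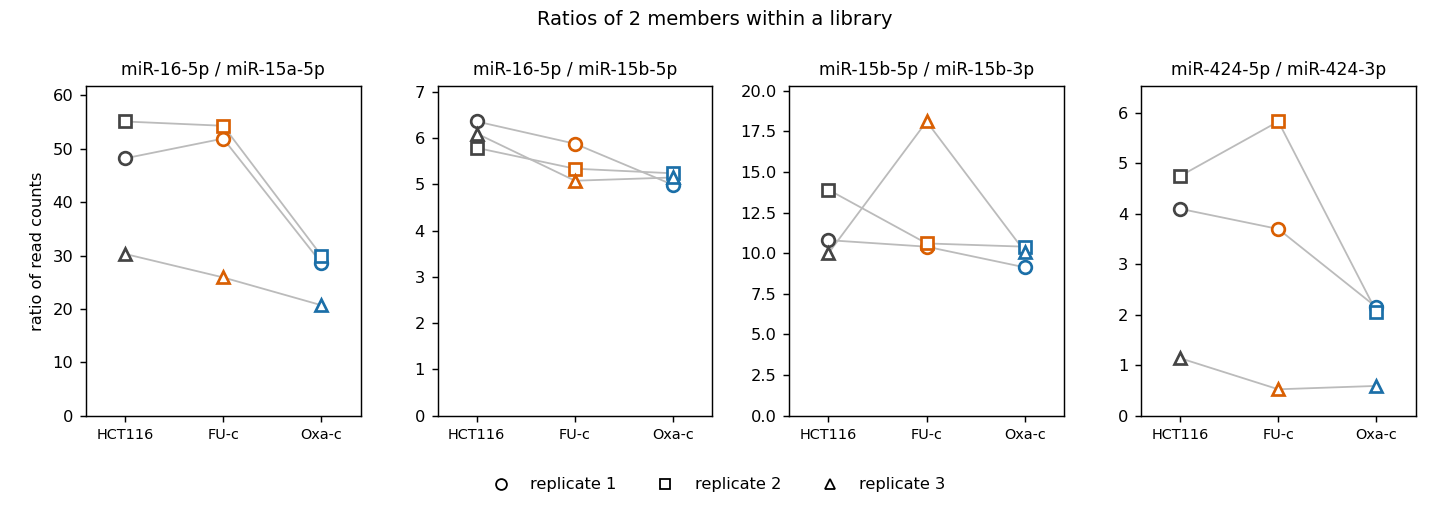
Ratio of the reads of a pair of members within each library, with a vertical axis from 0 in each panel. Symbols are replicates 1 to 3, grey lines join libraries of the same replicate number, and FU-c and Oxa-c stand for HCT-FU-c and HCT-Oxa-c. The miR-16-5p to miR-15a-5p ratio falls to 20.7 to 30.0 in HCT-Oxa-c, and the miR-424-5p to miR-424-3p ratio is lowest in replicate 3 of every line.

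Replicate 3 moved the members unequally. Its level of miR-16-5p was 0.614, 0.537 and 0.695 of the mean of replicates 1 and 2 in HCT116, HCT-FU-c and HCT-Oxa-c, and that of miR-15b-5p 0.611, 0.593 and 0.689. For miR-15a-5p the same quotient was 1.04, 1.1 and 0.985. For miR-424-3p it was 1.91, 1.22 and 0.927, opposite in HCT116 and HCT-FU-c to the fall of its partner strand. The labels name no batch for these libraries. The paper describes pooling several libraries per sequencing run, and the sample titles do not give the run of a library. The part of the sequencing run, of the lower depth of the replicate 3 libraries or of their miR-451a reads in this pattern was not tested.

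**Figure D4:**
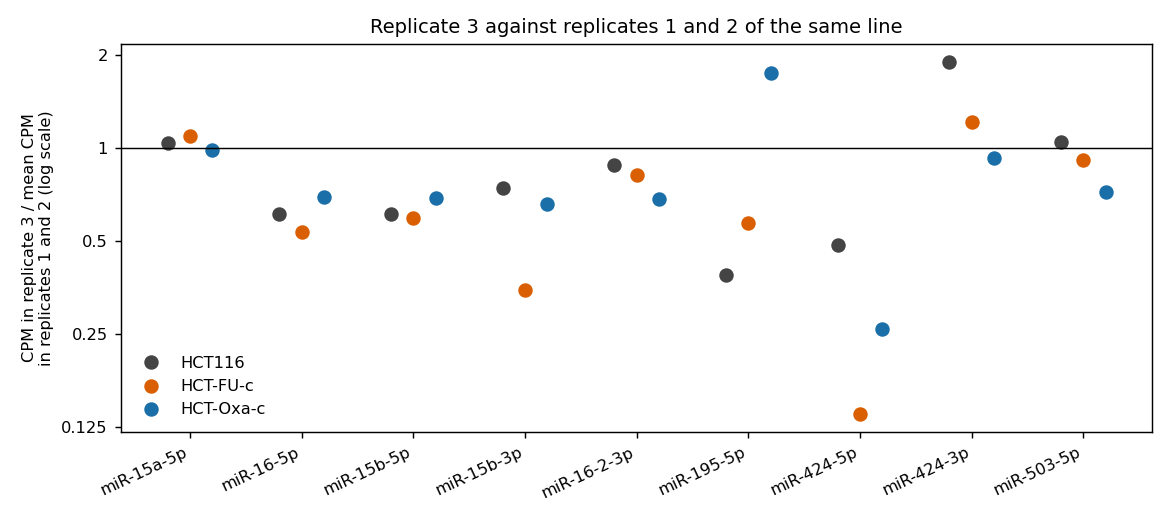
Level in replicate 3 divided by the mean level in replicates 1 and 2 of the same line, on a log scale, for the 9 tested members. Each point is 1 line. miR-16-5p and miR-15b-5p lie between 0.537 and 0.695 in all 3 lines, miR-424-5p between 0.137 and 0.487, and miR-15a-5p between 0.985 and 1.1.

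Across the 9 libraries, miR-16-5p and miR-15b-5p varied together (Pearson's r = 0.94 of log2 CPM), as did miR-16-5p and miR-424-5p (r = 0.905). miR-15a-5p did not follow miR-16-5p (r = -0.134), and the strands of MIR424 ran apart (r = -0.415). A search for the most alike miRNAs left out the members, their other strands, the chromosome X cluster and the related seeds. Among the remaining tested miRNAs the ones most alike miR-16-5p were miR-4326 (r = 0.988), miR-548o-3p (r = 0.971) and miR-374a-5p (r = 0.967). Those most alike miR-15a-5p were miR-889-3p (r = 0.932), miR-23b-5p (r = 0.923) and miR-203a-3p (r = 0.91), and those most alike miR-424-5p were miR-7976 and miR-330-5p (r = 0.949 each) and miR-148b-5p (r = 0.942). The miRNAs named as most alike had mean levels from 8.02 CPM for miR-23b-5p to 2614 CPM for miR-374a-5p. These are descriptions over 9 libraries that share lines, replicate numbers and depth.

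The other miRNAs of the chromosome X cluster and those of related seed were compared as well. Of 7 listed cluster miRNAs 3 were tested, miR-542-3p, miR-450a-5p and miR-450b-5p, and none of the 3 was called in any comparison with or without the block. In HCT-FU-c against HCT116 their log2 fold changes were 0.45, 0.56 and 0.09, and for HCT-Oxa-c they were -0.24, 0.24 and -0.02. In HCT-Oxa-c against HCT-FU-c they were -0.69, -0.32 and -0.1. All HCT-FU-c libraries of miR-450a-5p lay above those of HCT116. Libraries of these 2 lines did not overlap for 8.72% of all tested miRNAs. Of 4 listed miRNAs of related seed, miR-103a-3p and miR-107 were tested, which carry AGCAGCA from their first base and so have a seed shifted by 1 base. The level of miR-103a-3p ran from 5496 to 8203 CPM, overlapping that of miR-16-5p, and that of miR-107 from 91.6 to 186 CPM. Their log2 fold changes against HCT116 were -0.13 and -0.01 for the oxaliplatin subline and 0.05 and 0.29 for the 5-fluorouracil subline, and neither was called.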

How the data were processed

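Small RNA of HCT116 and of both sublines was sequenced by the authors in 3 cell culture replicates per line. The authors deposited raw read counts per mature miRNA, used here, and beside them the counts divided by a size factor, a normalized signal not used here. The submitters' processing notes name CASAVA 1.8, Bowtie 1.1.2, DESeq2 and GRCh38.p7. The counting tool and the treatment of reads that fit several miRNAs are not given in the sources used here. Lines and replicate numbers came from the sample titles.

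The counts were tested with edgeR 4.0.16 (R 4.3.3), quasi-likelihood F test, TMM, line as factor over all 9 libraries. filterByExpr (minimum count 10, minimum total 15) kept 367 of 1198 miRNAs and 9 of the 10 members. The prior count behind log2 fold changes was 0.125. Ratios were compared by exact permutation tests (scipy 1.17.1). Alternatives were library sizes from RLE, from total counts or from TMM computed with the top miRNA left out, DESeq2 1.42.0, other filters, the 6 libraries compared alone, replicates 1 and 2 only, each library left out, and the replicate number as a block. The members, the neighbouring miRNAs and the alternatives were chosen with earlier results of these data known. All 10 members are named, with the other strands, the chromosome X cluster, related seeds and the 3 miRNAs most alike miR-16-5p, miR-15a-5p and miR-424-5p. Deviations from the line means correlated at 0.395 to 0.754 for the 9 pairs of libraries with the same replicate number. For the 18 other pairs they correlated at -0.675 to 0.608, and every negative value involved a replicate 3 library. Among replicates 1 and 2, same-number pairs ran from 0.395 to 0.644 and other pairs from 0.408 to 0.608. The numbers, taken from the labels, were used as a block, which mainly sets replicate 3 apart. The biological coefficient of variation was 0.458 without and 0.174 with the block. The 7 marker miRNAs of gut epithelium, blood and smooth muscle were picked from general knowledge at the end. Scripts were tested on simulated counts drawn without a replicate effect. Such counts cannot show how either fit behaves when replicate 3 stands apart. Correlations used log2 of CPM plus 1. Sequences are RefSeq's on GRCh38.p14, matched by name for all 10 members, and hosts are from GENCODE on GRCh38.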

Additional observations from a re-analysis of the deposited data

How the results depend on the processing

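The count of members called changed in 3 settings, each in the 2 comparisons that involve HCT-Oxa-c. Against HCT116 it was 1 in HCT-Oxa-c with DESeq2, with the replicate block (both miR-15a-5p) and with replicates 1 and 2 only (miR-195-5p). In HCT-Oxa-c against HCT-FU-c it was 1 with DESeq2, 1 with the replicate block and 2 with replicates 1 and 2 only (miR-15a-5p and miR-424-5p). It was 0 in HCT-FU-c against HCT116 in every setting run, and 0 in all 3 comparisons with each library left out. Over all miRNAs the calls in the oxaliplatin subline against HCT116, the 5-fluorouracil subline against HCT116 and one subline against the other numbered 9, 0 and 16, and rose to 54, 20 and 97 with the paired fit, to 23, 4 and 43 with DESeq2 and to 43, 13 and 67 with replicates 1 and 2 only. Without a filter they were 16, 1 and 24, and with at least 10 counts in every library 4, 1 and 9.

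Some log2 fold changes near 0 changed direction. For miR-15b-5p in HCT-FU-c the log2 fold change was -0.05 with RLE and with DESeq2, -0.02 without the most abundant miRNA and with 6 libraries, and -0.03 with replicates 1 and 2 only. With total counts it was 0.05 for miR-15a-5p and 0.06 for miR-16-5p in HCT-FU-c. With a library left out it ran from -0.18 to 0.18 for miR-15b-5p, from -0.33 to 0.06 for miR-16-5p and from -0.22 to 0.70 for miR-424-5p in HCT-FU-c, and from -0.13 to 0.31 for miR-15b-5p and from -0.38 to 0.06 for miR-16-5p in HCT-Oxa-c. The summed family ran from -0.33 to 0.11 in HCT-Oxa-c and from -0.30 to 0.08 in HCT-FU-c, with 0.08 under total counts. The cause was not tested. Read depth limits miR-195-5p and miR-497-5p most.

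The ratios were refitted in settings chosen after seeing the data. With a library left out, the log2 difference of miR-16-5p to miR-15a-5p in HCT-Oxa-c against HCT116 ran from -0.98 to -0.55, that of miR-16-5p to miR-15b-5p from -0.28 to -0.21, and that of miR-424-5p to miR-424-3p from -1.68 to -0.41. That of miR-15b-5p to miR-15b-3p in HCT-Oxa-c against HCT-FU-c ran from -0.49 to -0.10. With replicates 1 and 2 only, the differences were -0.81, -0.25, -1.07 and -0.11 in the same order.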
